A study of Mus musculus with 12 samples.

Results

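The NR4A genes Nr4a1, Nr4a2 and Nr4a3 encode the orphan nuclear receptors of the NR4A family, and their mRNA was followed in natural killer (NK) cells sorted from mouse lymph nodes. The members were chosen by name, as 3 of the 56748 genes counted, and all 3 passed the filter on low counts. Their identifiers in the count tables are ENSMUSG00000023034 (Nr4a1), ENSMUSG00000026826 (Nr4a2) and ENSMUSG00000028341 (Nr4a3). The RNA came from 12 libraries in 3 groups of 4. Tumor-free nodes were taken from C57BL/6J mice, and the other groups were tumor-bearing nodes of a diffuse large B cell lymphoma model in which dissemination was lymphatic (lymphatic group) or by way of the blood (hematogenous group). The design asks how the NK cell transcriptome differs between these conditions. The sources used here do not give age, sex, the lymphoma cells, the host strain of the tumor groups or the sort gate. Samples are numbered 1 to 4 in each group, and nothing says that they came from separate animals. The spread behind each p-value is therefore that of the samples as deposited and could be technical.

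NR4A receptors have no known physiological ligand of the classical kind, and bulky side chains fill the pocket where other nuclear receptors hold a hormone. Their activity is set mainly by how much of them is made: the genes are immediate early genes, transcribed without new protein synthesis after calcium, MAP kinase or cyclic AMP signals, through factors that include NFAT, MEF2 and CREB. The proteins bind a short DNA element (NBRE) as monomers, and NR4A1 and NR4A2, but not NR4A3, can pair with retinoid X receptors. In lymphocytes Nr4a1 is widely used as a reporter of antigen receptor signalling, and the family is known to restrain T cell responses.

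Promoters are shown because the 3 genes lie on different chromosomes and Nr4a1 and Nr4a2 followed the same order of groups. Capitals mark each match to the CRE core, TGACG on either strand, the shared part of the element that CREB and its relatives bind. Sequences are those of RefSeq, 5′ to 3′ on the strand of the gene, from 250 bases before the RefSeq start up to the first transcript start that RefSeq or GENCODE places in the window. All 3 members were matched in the RefSeq table.
Nr4a1, GRCm38.p6 chr15:101266596-101266845, plus strand: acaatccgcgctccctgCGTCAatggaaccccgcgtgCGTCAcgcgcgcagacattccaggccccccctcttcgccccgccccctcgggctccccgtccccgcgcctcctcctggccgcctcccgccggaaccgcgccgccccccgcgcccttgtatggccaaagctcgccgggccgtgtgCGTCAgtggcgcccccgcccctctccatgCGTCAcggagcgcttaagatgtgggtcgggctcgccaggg
Nr4a2, GRCm38.p6 chr2:57124004-57124253, minus strand: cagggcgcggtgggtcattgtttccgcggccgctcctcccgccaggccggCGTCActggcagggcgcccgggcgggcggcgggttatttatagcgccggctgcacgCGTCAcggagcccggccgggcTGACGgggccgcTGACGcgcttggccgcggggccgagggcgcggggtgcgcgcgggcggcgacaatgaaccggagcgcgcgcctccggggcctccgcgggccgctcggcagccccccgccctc
Nr4a3, GRCm38.p6 chr4:48045055-48045152, plus strand: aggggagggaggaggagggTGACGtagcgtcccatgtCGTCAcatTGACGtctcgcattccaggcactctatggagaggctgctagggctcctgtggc
In the full RefSeq window of 300 bases (250 before to 50 after the start), Nr4a1, Nr4a2 and Nr4a3 each held 4 matches to the CRE core, of which 3 lie in the printed stretch of Nr4a3. Of 32851 such windows 20.8% held at least 1 and 0.231% held at least 4. Among the 6218 windows whose share of G and C was at least the 64.7% of Nr4a3, 32.4% held at least 1 and 0.563% at least 4. The matches of Nr4a1 all lay on the opposite strand, and Nr4a1 and Nr4a3 each held one at position −213 from the RefSeq start. None of the 3 windows matched the full CRE (TGACGTCA, in 1.79% of windows) or the NBRE (AAAGGTCA, in 1.51%). The AP-1 motif TGANTCA (7.81%) and the CArG box of serum response factor (1.63%) were also absent. The MEF2 motif was searched in a loose (3.69%) and a stricter form (0.402%, which overlaps the loose one), without a match. Both MEF2 forms were fixed to C at the start and G at the end, and other ends were not searched. The printed stretch of Nr4a2 holds a run that differs from both forms only in its first letter, T in place of C. Absence of MEF2 sites of other forms was therefore not tested. The NFAT core GGAAA, present in 61.3% of windows, matched at 1 place in Nr4a2. The full CRE contains the core on both strands, so those counts overlap. A match is a run of letters and not a measured binding site.

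**Figure D1:**
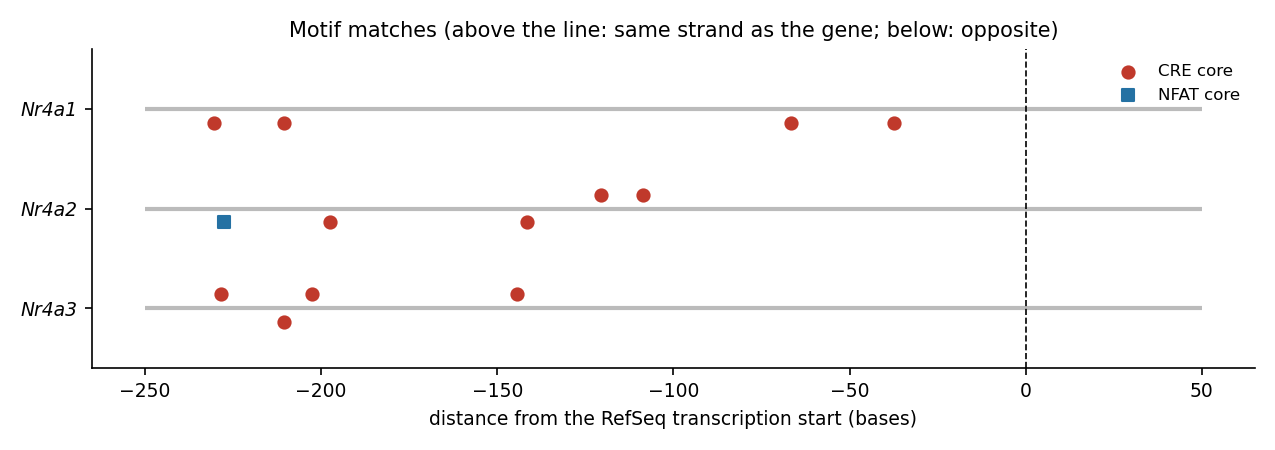
Motif matches in the RefSeq promoter windows of Nr4a1, Nr4a2 and Nr4a3, by distance from the RefSeq transcription start in bases; points above a line are on the strand of the gene and points below on the opposite strand. Each gene holds 4 matches to the CRE core (circles), and the NFAT core (square) is in Nr4a2.

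Libraries held 6654215 to 43494812 reads on genes, with 3 of the 4 tumor-free libraries the shallowest. The members were still well counted: the lowest count was 34 reads, for Nr4a2 in tumor-free replicate 1, and the highest 13814, for Nr4a1 in lymphatic replicate 2. NK cell markers were present in all libraries, with the summed level of 10 markers at 13667 to 15394 CPM (read counts scaled to library size with TMM factors) in the tumor-free, 12369 to 15315 in the lymphatic and 8936 to 10674 in the hematogenous libraries. In bulk RNA, fewer cells of a type and less RNA per cell cannot be told apart. The share of reads assigned to genes ranged from 55.4% to 72.1%.

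Nr4a1, the best-studied member, was low in tumor-free NK cells and high in the lymphatic group. Its level was 15.79, 15.98, 15.29 and 16.84 CPM in tumor-free replicates 1 to 4, a spread of 1.10-fold. In the lymphatic libraries it was 178, 378, 187 and 170 CPM. In the hematogenous libraries it was 34.7, 23.1, 23.3 and 84.2 CPM. The 3 groups did not overlap: every lymphatic library stood above every hematogenous one, and every hematogenous library above every tumor-free one. Of all tested genes, 7.66% had lymphatic libraries all above tumor-free ones and 11.5% had hematogenous libraries all above tumor-free ones. Hematogenous libraries all stood below lymphatic ones for 11.3%, and the share of genes with all 3 separations at once was not counted. Lymphatic replicate 2 and hematogenous replicate 4 were the high libraries of their groups.

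Nr4a2, known for its part in dopamine neurons and induced by the same kinds of signal in lymphocytes, followed the same order of groups. It stood at 3.98, 12.4, 8.39 and 10.1 CPM in the tumor-free libraries. The lymphatic libraries gave 132, 228, 105 and 110 CPM, and the hematogenous libraries 15.5, 20.4, 22.0 and 39.7 CPM. Again no library of one group reached into another, and the same 2 libraries were highest in their groups. The lowest value, in tumor-free replicate 1, rests on 34 reads.

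Nr4a3 did not keep this order. It was 38.7, 26.9, 27.6 and 30.5 CPM in the tumor-free libraries. In the lymphatic libraries it was 59.9, 248.9, 119 and 46.8 CPM, a 5.32-fold range, the widest of the 9 combinations of gene and group. The hematogenous libraries gave 19.7, 31.0, 14.1 and 36.8 CPM, of which replicates 1 and 3 lay below all tumor-free libraries and replicates 2 and 4 within their range. The lymphatic libraries still stood above all others, with replicates 1 and 4 nearest to them.

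**Figure D2:**
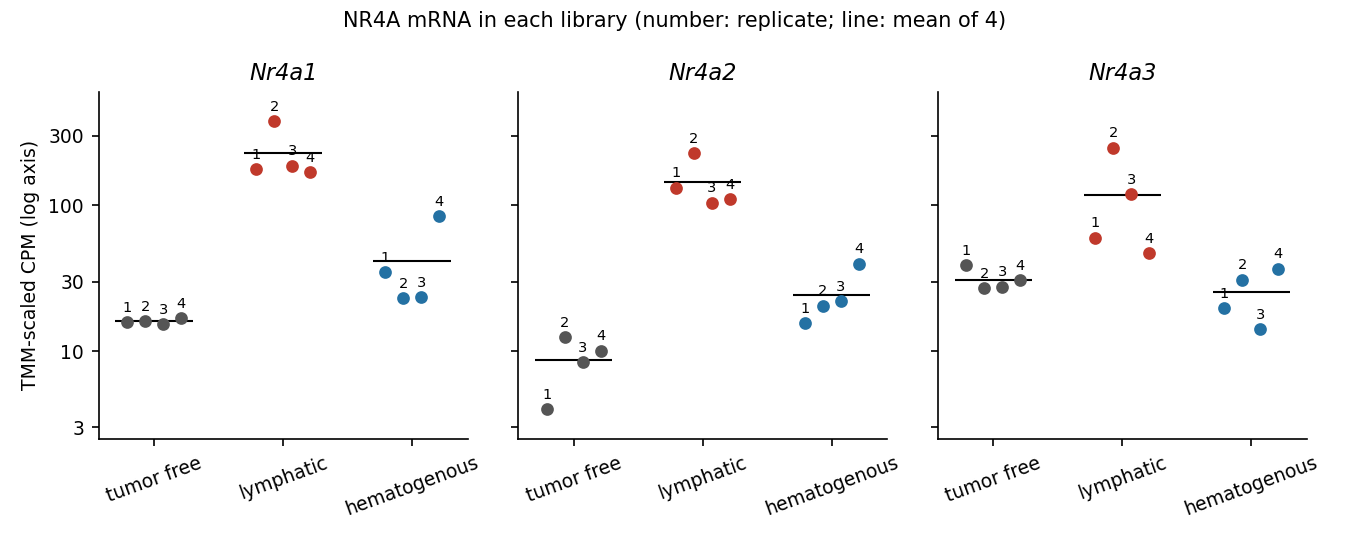
Level of each NR4A gene in each of the 12 libraries, as TMM-scaled CPM on a log axis, with replicate numbers and the mean of 4 as a line. Nr4a1 and Nr4a2 separate the 3 groups, while the hematogenous libraries of Nr4a3 (14.1 to 36.8 CPM) lie within and below the range of the tumor-free ones (26.9 to 38.7 CPM).

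In the comparison of lymphatic with tumor-free libraries, Nr4a1 rose 14.3-fold (log2 fold change 3.84, SE 0.435, edgeR adjusted p = 0.000284). Nr4a2 rose 16.7-fold (4.06, SE 0.354, edgeR adjusted p = 3.87e-06), with the 4th smallest p-value among the 16016 genes tested. Nr4a3 was 3.84-fold higher (1.94, SE 0.474), at an edgeR adjusted p of 0.0498, which is the largest among the 439 genes called at the threshold of 0.05. Higher genes made up 2.32% and lower genes 0.418% of those tested, and genes whose lymphatic libraries all stood above all tumor-free ones made up 7.66%. All 3 members were in both sets. The call of Nr4a3 was lost without any one of the 4 tumor-free libraries, lymphatic replicate 3 or hematogenous replicates 1, 2 or 3 (highest edgeR adjusted p = 0.171), and without lymphatic replicate 2 its log2 fold change fell to 1.25 (edgeR adjusted p = 0.0482). With voom and quality weights it was 1.21 (adjusted p = 0.221).

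Between hematogenous and tumor-free libraries 2 of the 3 members were called. Nr4a1 rose 2.59-fold (log2 fold change 1.37, SE 0.408, edgeR adjusted p = 0.0373). Nr4a2 rose 2.83-fold (1.502, SE 0.334, edgeR adjusted p = 0.00574). For Nr4a3 the log2 fold change was −0.28 (SE 0.468, edgeR adjusted p = 0.749), with a 95% interval of −1.20 to 0.64 from the SE. Higher genes were 9.52% and lower genes 6.87% of all tested in this comparison, and 11.5% had hematogenous libraries all above the tumor-free ones. Without hematogenous replicate 4 the log2 fold change of Nr4a1 was 0.76 (edgeR adjusted p = 0.0406). Its call was lost without tumor-free replicates 1, 2 or 4, lymphatic replicates 1 or 4 or hematogenous replicate 1 (highest edgeR adjusted p = 0.0880), while that of Nr4a2 was kept without each of the 12 libraries (highest edgeR adjusted p = 0.0165).

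Set against the lymphatic group, all 3 members were lower in the hematogenous group. Nr4a1 was lower by 5.53-fold (log2 fold change −2.47, SE 0.401, edgeR adjusted p = 0.00318), Nr4a2 by 5.88-fold (−2.56, SE 0.321, edgeR adjusted p = 0.000232) and Nr4a3 by 4.67-fold (−2.22, SE 0.475, edgeR adjusted p = 0.0135). Lower genes made up 5.92% and higher genes 2.93% of those tested, and 11.3% had hematogenous libraries all below the lymphatic ones. These calls held without each of the 12 libraries in turn (highest edgeR adjusted p = 0.0477, for Nr4a3 without hematogenous replicate 3). For Nr4a3 the log2 fold change was −1.57 without lymphatic replicate 2 and −1.37 with voom and quality weights. The 3 comparisons share groups of libraries with one another and are not independent of each other.

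**Figure D3:**
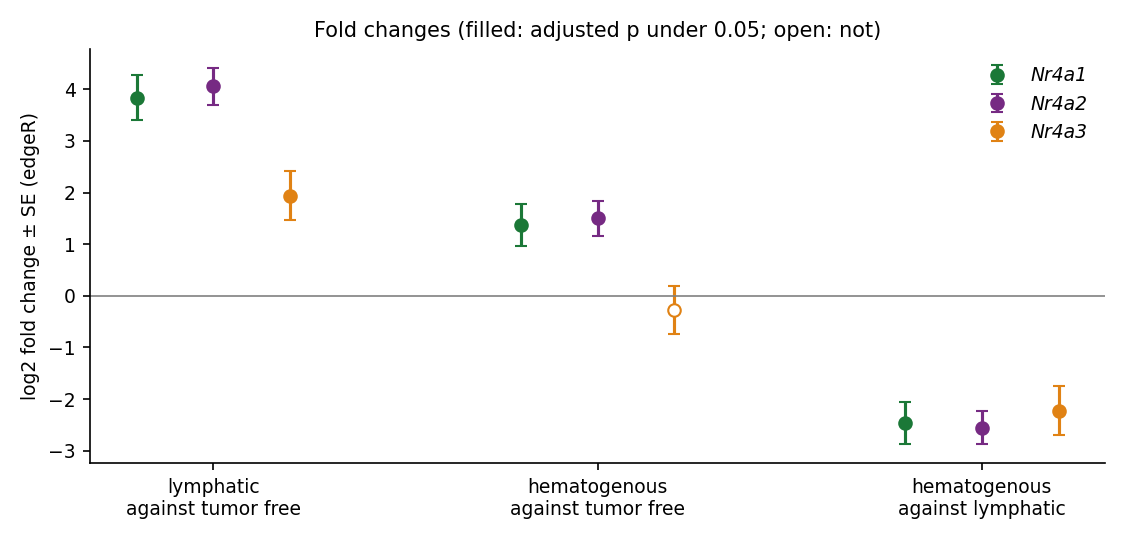
Log2 fold change of each NR4A gene with its standard error in the 3 comparisons, from edgeR on all 12 libraries; filled points have an adjusted p under 0.05. Nr4a1 and Nr4a2 sit together in each comparison, and Nr4a3 is lower than both against tumor-free libraries (1.94 and −0.28) and beside them between the models (−2.22).

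The balance between members was then measured within each library as a ratio of read counts. Library scaling cancels in the ratio, and gene length cancels only in its difference between groups. The log2 ratio of Nr4a1 to Nr4a3 reads was −0.94 ± 0.241 (SD, n = 4) in the tumor-free, 1.17 ± 0.639 in the lymphatic and 0.58 ± 0.698 in the hematogenous libraries. It was higher by 2.11 in the lymphatic and by 1.51 in the hematogenous than in the tumor-free group, each without overlap (exact permutation test, two-sided p = 0.029 for both, the smallest that 4 against 4 allows; adjusted p = 0.0643 over 9 tests). The log2 ratio of Nr4a2 to Nr4a3 was higher by 2.43 and 1.87 in the same comparisons, also without overlap (exact p = 0.029 and adjusted p = 0.0643 for both). None of these passed after adjustment. Each already had the smallest exact p that the design allows, so the adjusted test cannot decide whether the balance changed. Balance of Nr4a1 to Nr4a2 overlapped between all groups, with a mean log2 ratio of 0.98 ± 0.694 in the tumor-free, 0.66 ± 0.174 in the lymphatic and 0.63 ± 0.575 in the hematogenous libraries (adjusted exact p = 0.611, 0.611 and 0.914). Between the 2 models no ratio differed beyond the spread of the libraries (lowest exact p = 0.257, adjusted p = 0.429).

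Levels of the members were set side by side per kilobase of exon. The lengths join all annotated exons of a gene, so the order of members and their shares rest on that choice. On this scale Nr4a3 stood at 5.17 ± 0.903, Nr4a1 at 4.55 ± 0.184 and Nr4a2 at 2.15 ± 0.879 CPM per kilobase in tumor-free libraries (SD, n = 4). The first 2 of these overlapped across libraries, and Nr4a2 was the lowest in each. In the lymphatic group the order was Nr4a1 (65.0 ± 28.5), Nr4a2 (35.4 ± 14.1) and Nr4a3 (19.8 ± 15.4), and it held in each library. In the hematogenous group it was Nr4a1 (11.8 ± 8.30), Nr4a2 (6.01 ± 2.599) and Nr4a3 (4.24 ± 1.73), where Nr4a3 was just above Nr4a2 in replicate 2. Among the tested genes with a known length, the group mean of Nr4a1 lay at percentile 49.0 in tumor-free, 95.4 in lymphatic and 70.9 in hematogenous libraries. Nr4a3 moved from percentile 51.7 to 81.3 and 45.9 across the same groups, and Nr4a2 from 35.4 to 90.0 and 54.3. As a share of the summed NR4A level, Nr4a3 made up 37.1% to 54.1% in tumor-free, 9.39% to 20.3% in lymphatic and 15.4% to 30.8% in hematogenous libraries, so that neither tumor group overlapped the tumor-free group. Nr4a1 made up 37.6% to 39.5%, 52.4% to 58.0% and 39.2% to 60.1%, the last of which overlaps the tumor-free range.

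**Figure D4:**
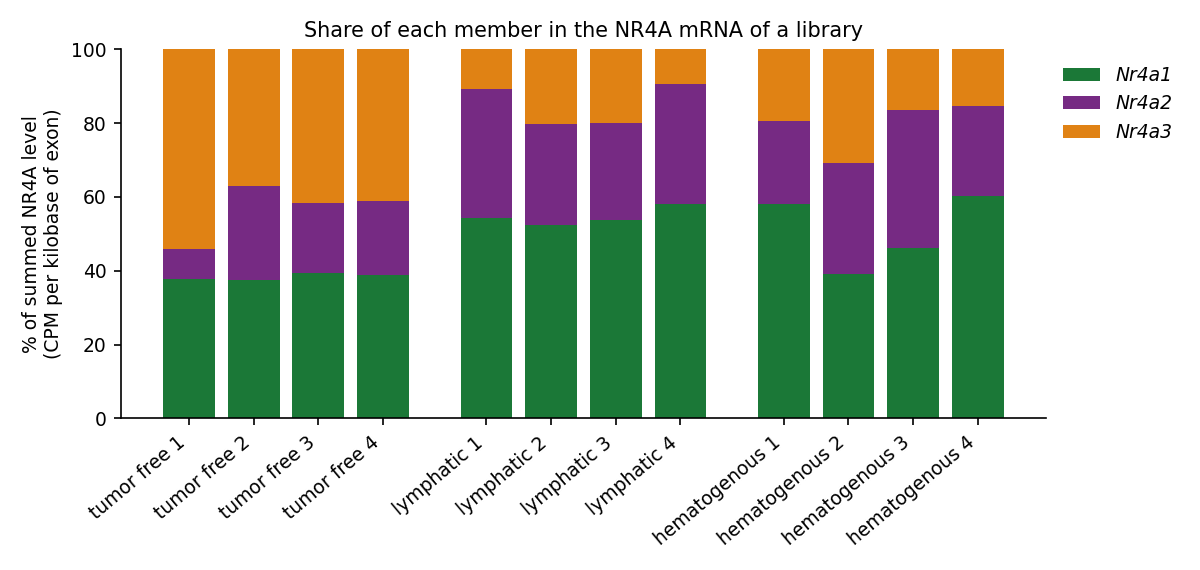
Share of each member in the summed NR4A level of a library, in percent of CPM per kilobase of exon; each bar is 1 of the 12 libraries. Nr4a3 is at least 37.1% of the sum in each tumor-free library and at most 30.8% in the libraries of the 2 models.

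Other immediate early genes were compared in the same way. In a list of 38 such genes, without the NR4A members, 37 were tested. Of these 25 rose and none fell in lymphatic against tumor-free libraries (none lower at an unadjusted edgeR p under 0.05, by DESeq2 or by voom), with a median log2 fold change of 1.21 (0.08 over all tested genes, of which 2.74% were called). Fos, an AP-1 subunit, ranged from 4.33 to 10.2 CPM in tumor-free, from 271 to 512 in lymphatic and from 60.3 to 187 in hematogenous libraries, so it separated the 3 groups as Nr4a1 and Nr4a2 did. Its log2 fold changes were 5.72 (SE 0.443) and 3.74 (SE 0.415) against tumor free and −1.98 (SE 0.360) between the models (edgeR adjusted p = 1.8e-05, 0.000148 and 0.00597). Zfp36, whose product destabilizes cytokine mRNA, ranged from 109 to 120, from 309 to 432 and from 145 to 216 CPM, also without overlap, and passed in all 3 comparisons (log2 fold changes 1.61, 0.74 and −0.87). Ppp1r15a, a phosphatase subunit of the stress response, did so too (3.48, 2.46 and −1.02), and the MAP kinase phosphatase gene Dusp1 rose by 4.87 and 3.95 against tumor free.

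In the hematogenous group 17 of the 37 rose and 1 fell against tumor free, with 22 higher and 4 lower at an unadjusted p under 0.05, 2 lower by DESeq2 and none by voom (median 0.63, against 0.08 and 16.4% called over all genes). The one that fell was Egr2, at 2.27 to 6.21 CPM against 6.90 to 27.8 CPM, and fell by 1.54 on the log2 scale (SE 0.428, edgeR adjusted p = 0.0181). Its product is, like NR4A proteins, a transcription factor induced by antigen receptor signals. Egr1, of the same family, stood at 10.8 to 22.9 CPM in tumor-free, 55.3 to 85.2 in lymphatic and 10.3 to 26.8 in hematogenous libraries (log2 fold change 1.91 for lymphatic, edgeR adjusted p = 0.000341, and 0.33 for hematogenous against tumor free, edgeR adjusted p = 0.467). Against the lymphatic group 19 of the 37 genes were lower in the hematogenous group and none higher, with 1 higher at an unadjusted p under 0.05, 1 by DESeq2 and 2 by voom (edgeR median −0.88, against −0.01 and 8.85% called over all genes).

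Genes that carry signals to the NR4A promoters were followed in a list of 33 inducers and co-regulators. In the lymphatic comparison none was called by edgeR, where 2.74% of all genes were (median 0.06, against 0.08 over all genes), with 2 higher at an unadjusted p under 0.05, none by DESeq2 and 1 higher by voom. The NFAT genes Nfatc1 and Nfatc2 stood at 0.11 (SE 0.133, edgeR adjusted p = 0.801) and −0.31 (SE 0.165, edgeR adjusted p = 0.432). Crem, which encodes CREB-related activators and repressors, ranged from 0.444 to 16.3 CPM in tumor-free, 29.9 to 55.6 in lymphatic and 12.4 to 39.8 in hematogenous libraries, and its log2 fold changes of 2.23 and 1.51 against tumor free did not pass (edgeR adjusted p = 0.0696 and 0.0997). In the hematogenous group 6 rose and 2 fell, 24.2% of the list against 16.4% called over all genes, and voom called 3 higher and 1 lower. The osmotic stress factor gene Nfat5 rose by 0.91 (SE 0.162), the myocyte enhancer factor gene Mef2d by 0.63 (SE 0.154) and the calcium-dependent kinase gene Camk4 by 1.18 (SE 0.346), while Srf, the gene of serum response factor, fell by 0.85 on the log2 scale (SE 0.233; edgeR adjusted p = 0.000972, 0.00863, 0.0241 and 0.0174). The other gene that fell was Mapk3, of the kinase ERK1 (−0.50, edgeR adjusted p = 0.0353). Compared with the lymphatic group 4 of the 33 were higher (Camk4, Elk4, Hdac4 and Nfat5). Hdac4, of a histone deacetylase that binds MEF2, stood at 0.59 (SE 0.152, edgeR adjusted p = 0.0187). None was lower by edgeR, with 3 lower at an unadjusted p under 0.05, none by DESeq2 and 2 by voom.

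A list of 28 genes held other nuclear receptors, NR4A partners and Ahr, a receptor gene outside the nuclear receptor family. From this list 23 genes were tested, and none was called in the lymphatic comparison. There, 2.74% of all genes were called (list median −0.10, against 0.08 over all genes). At an unadjusted edgeR p under 0.05, 2 were higher and 3 lower, and DESeq2 and voom each called 1 lower. Rxra, the gene of a pairing partner, ranged from 77.8 to 83.04 CPM in tumor-free, 47.5 to 68.7 in lymphatic and 30.7 to 66.3 in hematogenous libraries. It fell in the last by 0.71 on the log2 scale (SE 0.186, edgeR adjusted p = 0.0140), while the lymphatic comparison gave −0.39 (edgeR adjusted p = 0.354). Rxrb, a second partner gene, had log2 fold changes of −0.01 and −0.17 against tumor free (edgeR adjusted p = 0.994 and 0.580), and Rxrg was too low to test, at no more than 2.69 CPM in any library. In the hematogenous group 4 of the 23 rose and 3 fell against tumor free, where 9.52% of all genes rose and 6.87% fell. Rora, which encodes a receptor that drives innate lymphoid development, rose by 1.85 (SE 0.335), the circadian repressor gene Nr1d2 by 1.26 (SE 0.195) and Nr2c2, of an orphan receptor, by 0.67 (SE 0.172; edgeR adjusted p = 0.00140, 0.000363 and 0.0116). The retinoic acid receptor gene Rara (−0.74, edgeR adjusted p = 0.0137) and Ppard (−0.72, edgeR adjusted p = 0.0463) fell with Rxra. Rora and Nr1d2 were also higher than in the lymphatic group, by 1.94 and 0.99, and no other gene of the list was called there.

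A list of 29 genes linked to NR4A in T cell dysfunction and tolerance held 27 tested genes. In the lymphatic comparison 7 rose and 1 fell (median 0.45, against 0.08 and 2.74% called over all genes). Ifng, the interferon-gamma gene, rose by 1.56 (SE 0.231), the ubiquitin ligase gene Cblb by 0.68 (SE 0.129), the repressor gene Bach2 by 0.72 (SE 0.1497) and the checkpoint receptor gene Lag3 by 1.29 (SE 0.329; edgeR adjusted p = 0.000417, 0.00449, 0.00948 and 0.0376). The gene that fell was Id2, of an inhibitor of E proteins (−0.84, edgeR adjusted p = 0.00948). In the hematogenous comparison 8 rose and 3 fell (median 0.26, against 0.08 and 16.4% called over all genes). Cblb (0.79) and Bach2 (0.90) rose there as well, with Ikzf2, of the Helios factor, at 1.28 (SE 0.182) and the pro-apoptotic gene Bcl2l11 at 1.43 (SE 0.221; edgeR adjusted p = 0.000519, 0.000663, 0.000166 and 0.000402). Ifng ranged from 46.9 to 80.0 CPM in hematogenous and from 52.8 to 91.3 CPM in tumor-free libraries (log2 fold change −0.11, edgeR adjusted p = 0.795), and was lower than in the lymphatic group by 1.67 on the log2 scale (edgeR adjusted p = 0.000321). Tox, which acts with NR4A factors in exhausted T cells, stood at 0.08 (edgeR adjusted p = 0.919) in the lymphatic comparison and fell in the hematogenous one (−0.55, SE 0.186, edgeR adjusted p = 0.0472), as did Id2 (−0.67) and Cd244a (−0.41). Between the models 3 of the 27 were higher in the hematogenous group (Bcl2l11, Ikzf2 and Nt5e) and 3 lower (Ifng, Lag3 and Tox), with a median of −0.11 and 8.85% of all genes called. Mapk3, Elk4, Ahr, Rara, Ppard, Id2 and Cd244a were named after their values were seen. Tox2, a relative of Tox, was too low to test (at most 1.08 CPM), and Pdcd1, the PD-1 gene, ranged from 0 to 2.01 CPM in tumor-free, 0 to 0.283 in lymphatic and 1.70 to 5.48 in hematogenous libraries, with no call (edgeR adjusted p = 0.464, 0.364 and 0.0632 in the 3 comparisons).

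**Figure D5:**
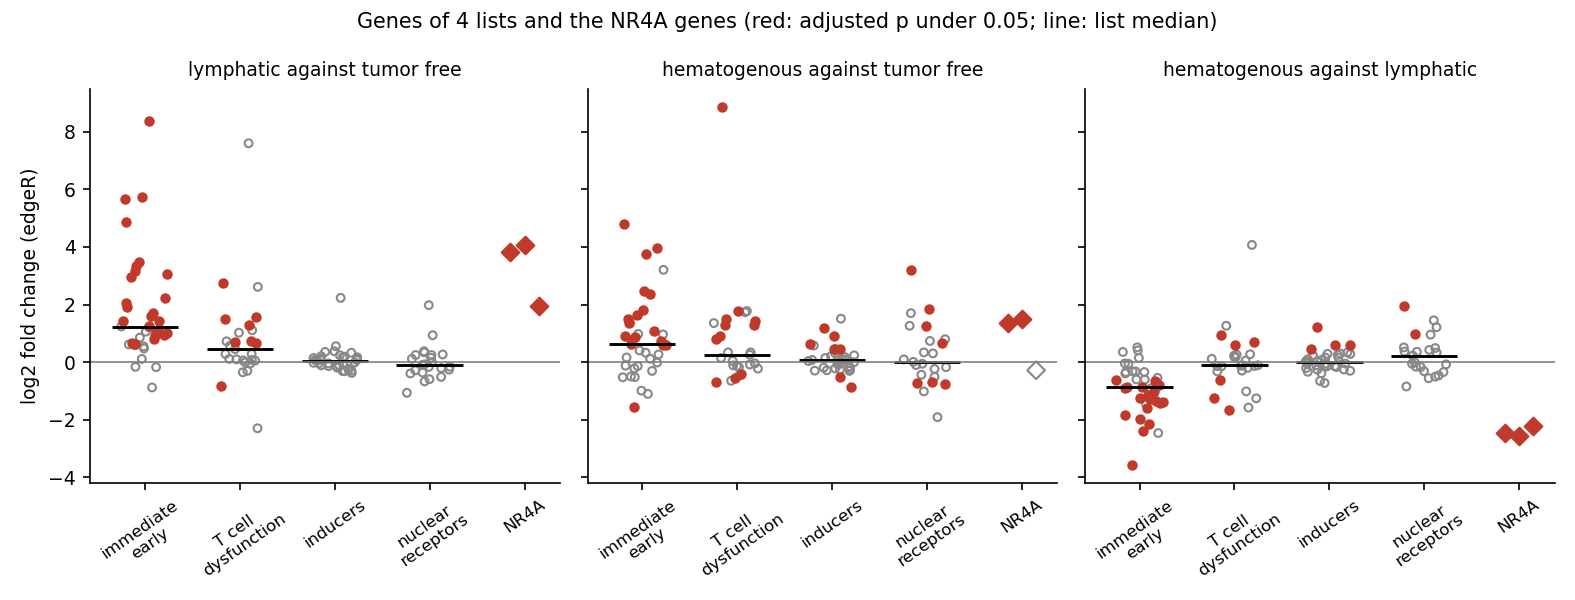
Log2 fold change (edgeR) of each tested gene of 4 lists and of the NR4A genes (diamonds, Nr4a1 to Nr4a3 from left to right) in the 3 comparisons; red marks an adjusted p under 0.05 and the line the list median. Against tumor free the median of immediate early genes is 1.21 in the lymphatic and 0.63 in the hematogenous comparison, and those of inducers are 0.06 and 0.07.

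The genes whose pattern was most like that of a member were found by Pearson r of log2 CPM over the 12 libraries, among 9396 other genes with a mean of at least 5 CPM. For Nr4a1 the closest was Nr4a2 (r = 0.96), followed by Zfp36 (0.96), Aida (0.96), the interferon-induced gene Ifit2 (0.94) and the growth factor signalling inhibitor gene Spry2 (0.93). For Nr4a2 the closest were Nr4a1, the AP-1 gene Jun (0.95), the chaperone gene Dnajb9 (0.95), Zfp36 (0.95) and the repressor gene Tgif1 (0.95). The closest to Nr4a3 were other genes: Stip1, a co-chaperone gene (0.96), Prmt5, an arginine methyltransferase gene (0.95), the constitutive heat shock genes Hspa8 (0.95) and Hsp90ab1 (0.94), and the receptor gene Crtam (0.94). Nr4a1 ranked 158th and Nr4a2 411th for Nr4a3 (r = 0.80 and 0.72). These values share the libraries, their depth and the group differences and carry no test. On deviations from the group means, r was 0.61 between Nr4a1 and Nr4a2, 0.66 between Nr4a1 and Nr4a3 and 0.36 between Nr4a2 and Nr4a3. The 5 closest genes had a value of 0.29 (Ifit2) to 0.70 (Zfp36) with Nr4a1, of 0.39 (Zfp36) to 0.93 (Tgif1) with Nr4a2 and of 0.86 to 0.92 with Nr4a3. Without lymphatic replicate 2, the highest library for all 3 members, these 5 genes had an r of 0.86 to 0.92 with Nr4a3 over the other 11 libraries, and Nr4a1 and Nr4a2 an r of 0.95, in an alternative chosen after seeing the data. In the same alternative the r of Nr4a3 fell to 0.72 with Nr4a1 and to 0.60 with Nr4a2.

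Markers of other cell types were measured beside these results, in comparisons where 2.74% (lymphatic) and 16.4% (hematogenous, both against tumor free) and 8.85% (between the models) of all genes were called. The summed level of 10 B cell markers was 29.3 to 139.8 CPM in tumor-free, 98.3 to 324 in lymphatic and 90.1 to 165 in hematogenous libraries, with 1 of 10 called (Pax5) in each comparison with tumor free. Their median log2 fold change was 1.07 in the lymphatic and 0.41 in the hematogenous comparison (0.08 over all genes in both). In the lymphatic comparison 4 were higher at an unadjusted edgeR p under 0.05, 1 by DESeq2 and none by voom. For the hematogenous comparison these counts were 1, 1 and none. Within the lymphatic group the summed level of B cell markers was 324, 98.3, 127.4 and 147.9 CPM in replicates 1 to 4. Nr4a1 stood at 178, 378, 187 and 170 CPM in the same libraries, and all 3 members were highest in replicate 2. Cd79a, a defining B cell gene, stood at 10.7 to 38.1 CPM in lymphatic and 5.04 to 18.2 CPM in tumor-free libraries. T cell markers summed to 317 to 489, 372 to 586 and 554 to 734 CPM in the 3 groups, with none of 10 called for the lymphatic (none at an unadjusted edgeR p under 0.05, by DESeq2 or by voom) and 4 higher, Cd3e among them, for the hematogenous comparison. The list of macrophage, monocyte and dendritic cell markers had 2 of 10 higher in the lymphatic and 6 of 10 in the hematogenous comparison. For the lymphatic comparison it had 5 higher at an unadjusted edgeR p under 0.05, 2 by DESeq2 and 1 by voom. For the hematogenous comparison it had 6 higher by each of these rules, and 1 lower by voom. It summed to 898 to 1041, 1213 to 1540 and 723 to 1063 CPM, most of it Itgax (757 to 929, 1099 to 1469 and 539 to 993 CPM), which NK cells also express, and Cd14 and Clec4a3 were at 0 counts in the tumor-free group. Lyz2, a lysozyme gene of myeloid cells, had log2 fold changes of −0.46 and −0.06 against tumor free (edgeR adjusted p = 0.699 and 0.941). Clec4a3 rose by 7.70 and 9.38 on the log2 scale, at no more than 1.90 and 9.08 CPM (edgeR adjusted p = 0.00994 and 0.000803). Cd68 rose by 1.60 and 1.51 (edgeR adjusted p = 0.0164 and 0.00791), and Csf1r by 1.72 in the hematogenous comparison (edgeR adjusted p = 0.0116). No gene of this list was called lower by edgeR against tumor free. Neutrophil and mast cell markers summed to 1.05 to 3.74, 4.34 to 6.04 and 12.8 to 154.7 CPM, with Mcpt4 and Ms4a2 at 0 counts in the tumor-free group and 3 of 5 tested genes higher in the hematogenous comparison (1 each by DESeq2 and voom). These 3 (Csf3r, S100a8 and S100a9) averaged 7.52, 7.13 and 9.18 CPM in the hematogenous libraries, where the sum averaged 95.95 CPM. Most of the sum thus came from other genes of the list, of which Mcpt4, Mpo and Ms4a2 were not tested. Within the hematogenous group the neutrophil and mast cell sum was 12.8, 140.3, 76.1 and 154.7 CPM in replicates 1 to 4. Nr4a1 stood at 34.7, 23.1, 23.3 and 84.2 CPM in the same libraries. All 3 members were highest in replicate 4 of the group, and Nr4a1 was lowest in replicate 2. Of the 10 NK markers 1 fell in the lymphatic comparison (Klrb1c) and 7 in the hematogenous one, where Ncr1, the gene of NKp46, fell by 1.09 on the log2 scale (edgeR adjusted p = 7.89e-05). Between the models, where all 3 members were lower in the hematogenous group, 6 of 10 NK markers were lower. Higher there were 2 of 10 T cell markers (Cd6 and Cd8a) and 3 of 5 neutrophil and mast cell markers (Csf3r, S100a8 and S100a9). DESeq2 called none of the neutrophil and mast cell list higher, and voom called 3. Of 10 macrophage, monocyte and dendritic cell markers Itgax was lower (log2 fold change −0.79, edgeR adjusted p = 0.00514) and none was called higher by edgeR. In that list DESeq2 called 1 higher and 1 lower, and voom 4 higher and 1 lower. The part of other cells in the NR4A values was not tested.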

How the data were processed

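RNA of sorted NK cells was sequenced in 12 libraries. Raw read counts per gene were deposited by the authors, 1 table per library. The submitters' processing notes list HTSeq 2.0.2, HISAT2 2.1.0, Trimmomatic 0.39, FastQC 0.11.9 and the build GRCm39. The sources used here do not name the annotation release or the strand option, so overlapping and antisense genes may share reads. The 5 summary lines of each table were left out. Groups and numbers came from sample titles. Symbols came from GENCODE M21 by versionless ID and matched 91.8% of IDs, and exon lengths are from the same release, on an older build.

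Genes were tested with edgeR 4.0.16 in R 4.3.3 (quasi-likelihood F test, robust, TMM scaling, default filter, group alone, all 12 libraries, 9 residual degrees of freedom) and called where p, adjusted by Benjamini-Hochberg over 16016 genes, was under 0.05. For the SE, the size of the log2 fold change was divided by the root of F. The fit was tested on simulated counts. Balance between members is the log2 ratio of counts plus 0.5, compared with exact permutation tests (scipy 1.17.1). Reads carry no molecular identifiers.

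Members and lists were chosen with earlier results of these data known, so none of the counts is independent support. Named genes are the members, up to 3 called genes of each list with the smallest adjusted p in a comparison, a fixed set (Rxra, Rxrb, Rxrg, Nfatc1, Nfatc2, Mef2d, Crem, Fos, Egr1, Pdcd1, Tox, Tox2, Cd79a, Cd3e, Lyz2, Ncr1) and the 5 genes most like each member (log2 CPM, prior count 2). Not all of them are described, and a few genes outside the rule are marked as such. One called gene of a list is not reported here. Alternatives were other scalings, filters and tests (DESeq2 1.42.0, limma 3.58.1 voom), the compared groups alone, equal depth (6654215 counts), a replicate block, a stricter threshold and leaving out each library.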

Additional observations from a re-analysis of the deposited data

Results flagged for a closer look

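Nr4a1 in lymphatic replicate 2, at 378 CPM, stood far above the other 3 lymphatic libraries, the next of which was at 187 CPM. Its gap to the next library was 0.915 of the range of the group, above Dixon's critical value for 4 samples. Of 18 sets of 4 values checked (the 3 members and the 3 ratios between members in each group), this was the 1 that stood out, and chance gives about 1 in 20. Nr4a2 (228 CPM) and Nr4a3 (248.9 CPM) were also highest in that library. Without it the log2 fold change of Nr4a1 in the lymphatic group against tumor free was 3.45 (edgeR adjusted p = 0.000168).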

How the results depend on the processing

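Nr4a1 and Nr4a2 in the lymphatic group against tumor free, Nr4a2 in the hematogenous group against tumor free, and both genes between the models kept direction and call in all alternatives run. No call on a member changed direction. The uncalled difference in the ratio of Nr4a1 to Nr4a2 changed sign without 1 library, with a range of −0.54 to 0.0017 in the lymphatic comparison and of −0.21 to 0.15 between the models. Nr4a3 in the lymphatic comparison lost its call with DESeq2 size factors (log2 fold change 1.86), library size alone (1.85), no filter on low counts (1.91), voom with quality weights (1.21), equal depth (1.82) and an adjusted p under 0.01 (1.94), and kept it with DESeq2 (1.86, DESeq2 adjusted p = 0.0120). Leaving out 1 library gave 1.25 to 2.17. Nr4a1 in the hematogenous group against tumor free lost its call with no filter (1.38), voom (1.28) and the stricter threshold (1.37), and ranged from 0.76 to 1.57 without 1 library. Nr4a3 between the models lost its call with no filter (−2.18) and the stricter threshold (−2.22). The cause was not tested. The number of genes called was 439, 2625 and 1417 in the order lymphatic, hematogenous (both against tumor free) and between the models. At the stricter threshold it was 195, 1109 and 477. DESeq2 gave 729 in the first and voom 2913 in the last. Without 1 library the counts ran from 255 to 634, from 1760 to 3202 and from 620 to 1572. The first was 255 without lymphatic replicate 4, and the last was 620 without lymphatic replicate 2, 620 without hematogenous replicate 3 and 811 without hematogenous replicate 1. All ratios between members stayed within 1 SD with other pseudocounts (1 or 0.1) and without each library.

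Numbers were not shown to pair samples: same-numbered deviations from the group means correlated at −0.07 to 0.06 in 12 pairs, none over 0.1. With a replicate block Nr4a3 in the lymphatic comparison (1.74, edgeR adjusted p = 0.114) and Nr4a1 in the hematogenous comparison (1.24, edgeR adjusted p = 0.0671) were no longer called, and no other call on a member changed. The block gave 362, 2518 and 1439 called genes. Depth limits the tumor-free values most, where Nr4a2 rests on 34 to 197 reads.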
